A study of Mus musculus with 6 samples.

Results

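The 9 ionotropic glutamate receptor genes that are named for auditory nerve fibres were followed in the cochlea of young and old mice. The genes were chosen by name, as Gria1, Gria2, Gria3 and Gria4 for AMPA receptors, Grin1, Grin2a and Grin2b for NMDA receptors and Grik4 and Grik5 for kainate receptors, out of 25419 genes in the table. Of these 9 genes, 7 had a mean of at least 0.1 FPKM (fragments mapped to a transcript, scaled to its length and to the mapped fragments of the library) and were tested among 19465 genes. They are represented by 34 transcripts of the 56671 in the table, and 17 of the 34 were tested. The annotation used here holds 62 transcripts of the 9 genes, so transcript results cover only those in the table. RNA-sequencing was done on 3 young samples (1 month old) and 3 old samples (12 months old) of C57BL/6 mice, a strain that loses hearing early in life. The labels name no treatment and no engineered allele, and each sample mixed tissue of 3 mice. The labels give the tissue as cochlea, from which the basilar membrane was dissected and snap frozen. Replicates are thus pools, and the p-values measure the spread between pools.

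Sound makes inner hair cells release glutamate onto the endings of spiral ganglion neurons, the cells whose axons form the auditory nerve. AMPA receptors, tetramers of the GluA subunits, carry the fast current at this synapse. NMDA receptors need the obligatory subunit GluN1 together with GluN2 or GluN3 subunits, and kainate receptors combine low-affinity GluK1 to GluK3 subunits with the high-affinity subunits GluK4 and GluK5. Loss of these synapses and, later, of the neurons is a known part of hearing loss with age.

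The estimated depth was 12100000 to 15310000 fragments per sample. Over all genes, limma called 1099 higher (5.65% of those tested) and 741 lower (3.81%), and the log2 change had a median of 0.01. Spiral ganglion neuron markers were present in every sample, and the geometric mean of 18 such markers was 22.8, 28.0 and 16.6 FPKM in young samples 1 to 3 and 11.9, 13.0 and 11.5 FPKM in the old samples. Of these markers, 11 were called lower and 0 higher (at an unadjusted p below 0.05, 1 was higher), and the median log2 change was -0.99. In such mixed tissue, fewer neurons and less RNA per neuron cannot be told apart, and no receptor transcript can be assigned to 1 cell type. Central glia markers, 8 genes, summed to 23.6 FPKM in young sample 1 against 7.98 to 12.6 FPKM in the other samples. Mobp, a myelin gene of the brain, was 4.54 FPKM in young sample 1 against 0.0761 to 0.773 FPKM elsewhere. Mog, Opalin, Gfap, Olig1, Olig2 and Hapln2 were also highest in young sample 1. Olig1 was nearly as high in old sample 2, at 0.474 against 0.482 FPKM. Aqp4, the most abundant of the list, was instead highest in young sample 3, at 10.3 FPKM. Central inhibitory neuron markers, 4 genes, summed to 0.902 to 1.68 FPKM in young and 0.505 to 1.11 FPKM in old samples, with Gad1 the highest of them in each sample. The other 3 were highest in young sample 1, with Gad2 at 0.193 against at most 0.0264 FPKM elsewhere, Slc32a1 at 0.12 against at most 0.0317 FPKM and Slc6a5 at 0.045 against at most 0.0221 FPKM.

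Levels per transcript length differed widely between the 9 genes. In young mice the order of mean FPKM was Gria3, Gria4, Grin1, Grik5, Gria2, Grik4, Gria1, Grin2b and Grin2a. The ranges of Gria3 and Gria4, of Gria4 and Grin1 and of Grin1 and Grik5 overlapped, as did those of Grin2b and Grin2a, whereas the other neighbours were separate. In old mice Grik5 stood at rank 2 in each of the 3 samples, from rank 4 in each young sample. Gria3 was at rank 1 in all 6 samples, and its range in old mice overlapped that of Grik5.

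**Figure D1:**
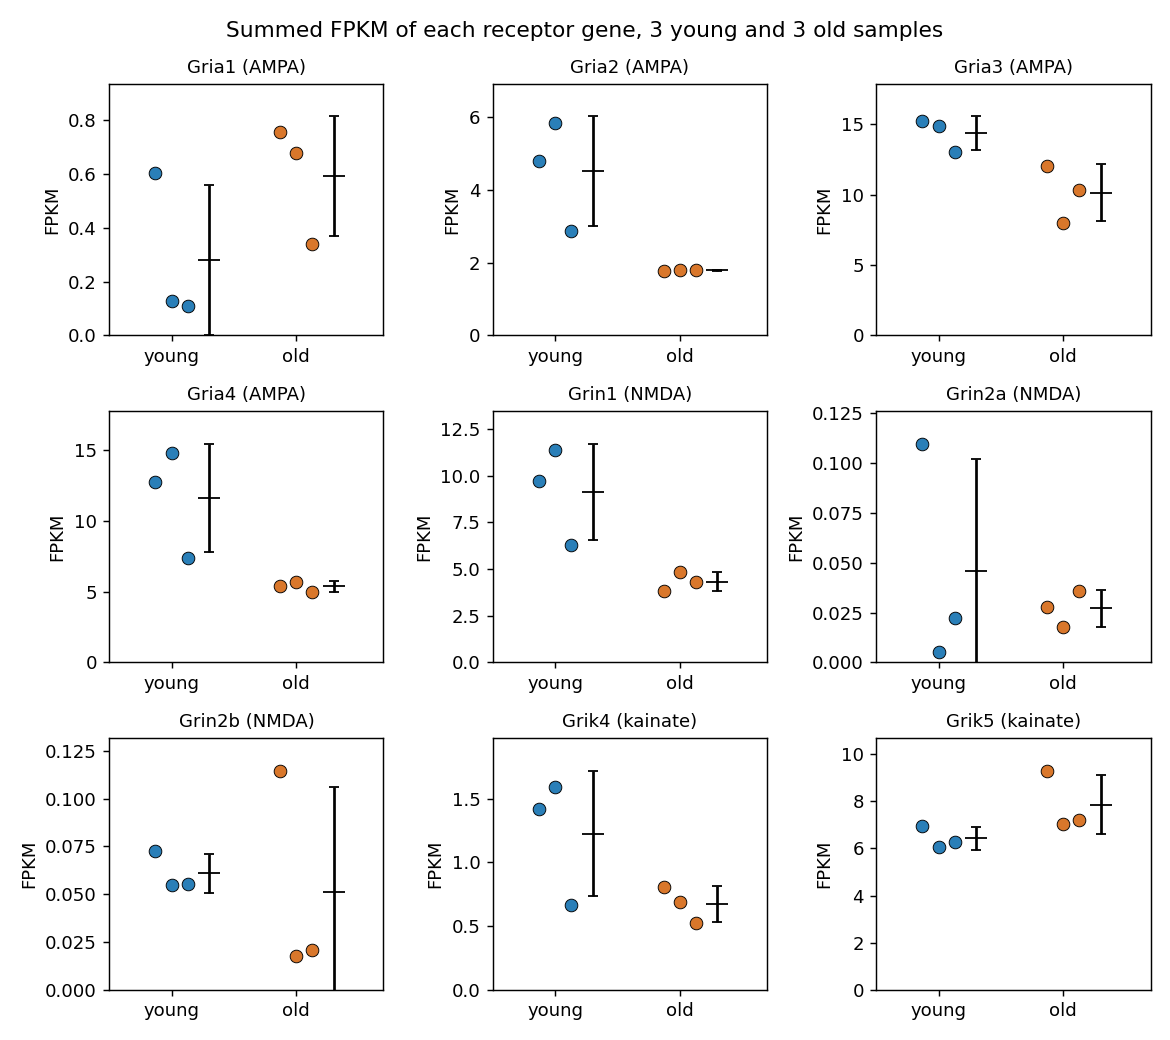
FPKM of each receptor gene, summed over its transcripts (vertical axis, starting at 0 and scaled per gene), for 3 young (blue) and 3 old (orange) samples, with the group mean and SD as black bars. Old samples lie below all young samples for Gria2, Gria3, Gria4 and Grin1 and above them for Grik5, and the groups overlap for Gria1, Grin2a, Grin2b and Grik4.

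Of the 7 receptor genes tested, limma called 3 lower in old mice (Gria2, Gria4 and Grin1), against 3.81% of all genes tested, and 0 higher, against 5.65%. At an unadjusted p below 0.05 it gave 4 lower, against 13.1% of all genes, and 0 higher, against 14.6%. All old samples were below all young samples in 4 genes (16.1% of all genes tested) and above them in 1 (17.6%). The 3 calls were kept without young sample 3, and 0 of them passed without any 1 of the other 5 samples, with the changes still below 0. Calls over all genes fell as well, to 46 to 562 higher and 16 to 179 lower without any 1 of those 5 samples. Without young sample 3 they were 949 and 822. Counts of the later lists with 1 sample left out are read beside these.

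Each AMPA receptor gene holds a pair of alternative exons of 115 nucleotides, flip and flop. They encode part of the ligand-binding domain and set how fast the receptor desensitizes. The exons are shown because the flip and flop transcripts in the table differ by them. In Gria2 and Gria3 these transcripts also differ in the last exon. Sequences are from the GENCODE M21 transcripts on GRCm38, 5′ to 3′ on the coding strand, and capitals mark the bases at which flip and flop of the same gene differ. Gria1 flip lies at chr11:57310608-57310722 and flop at chr11:57309769-57309883 (both + strand). Gria2 flip lies at chr3:80690404-80690518 and flop at chr3:80691320-80691434 (both − strand). Gria3 flip lies at chrX:41669501-41669615 and flop at chrX:41654810-41654924 (both + strand). Gria4 flip lies at chr9:4427030-4427144 and flop at chr9:4432773-4432887 (both − strand).
Gria1 flip: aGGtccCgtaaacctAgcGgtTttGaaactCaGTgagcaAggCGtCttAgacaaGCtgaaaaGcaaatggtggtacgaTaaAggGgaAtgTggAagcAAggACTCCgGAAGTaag
Gria1 flop: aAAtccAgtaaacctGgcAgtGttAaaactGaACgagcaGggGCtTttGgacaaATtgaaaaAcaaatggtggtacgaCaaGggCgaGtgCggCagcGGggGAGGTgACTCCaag
Gria2 flip: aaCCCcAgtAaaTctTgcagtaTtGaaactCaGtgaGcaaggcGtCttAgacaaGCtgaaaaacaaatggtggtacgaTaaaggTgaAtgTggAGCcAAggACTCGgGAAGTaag
Gria2 flop: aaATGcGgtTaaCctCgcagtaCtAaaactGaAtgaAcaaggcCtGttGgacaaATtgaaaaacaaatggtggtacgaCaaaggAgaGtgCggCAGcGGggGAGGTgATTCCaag
Gria3 flip: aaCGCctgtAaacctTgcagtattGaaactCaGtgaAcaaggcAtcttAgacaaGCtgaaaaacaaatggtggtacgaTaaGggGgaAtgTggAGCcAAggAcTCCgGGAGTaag
Gria3 flop: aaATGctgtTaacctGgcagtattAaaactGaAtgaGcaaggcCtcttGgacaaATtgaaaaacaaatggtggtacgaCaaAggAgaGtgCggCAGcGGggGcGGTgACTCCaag
Gria4 flip: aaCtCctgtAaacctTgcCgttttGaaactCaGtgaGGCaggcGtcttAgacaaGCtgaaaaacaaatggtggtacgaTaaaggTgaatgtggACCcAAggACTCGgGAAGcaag
Gria4 flop: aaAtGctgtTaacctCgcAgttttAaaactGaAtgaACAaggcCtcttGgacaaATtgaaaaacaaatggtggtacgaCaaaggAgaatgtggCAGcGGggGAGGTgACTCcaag
The exons of a gene differed at 36 bases in Gria1 and in Gria2, 32 in Gria3 and 31 in Gria4.

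Gria2 (ENSMUSG00000033981, chr3:80681450-80802835) encodes GluA2, the subunit whose edited form keeps calcium out of the channel. Its level was 4.81, 5.86 and 2.88 FPKM in young samples 1 to 3 and 1.78, 1.79 and 1.79 FPKM in old samples 1 to 3. All old samples were below the lowest young sample, and the old samples were nearly level with each other (mean 1.79 ± 0.0042, SD, n = 3) whereas the young samples spread widely (4.51 ± 1.51). The mean was 60.4% lower, and the log2 change was -1.23 (SE 0.26, with limma's adjusted p = 0.0336).

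Gria4 (ENSMUSG00000025892, chr9:4417896-4796234) encodes GluA4, a subunit of fast auditory synapses. Values were 12.8, 14.7 and 7.38 FPKM in the young and 5.38, 5.71 and 4.99 FPKM in the old samples. The groups did not overlap, and young sample 3 was again the lowest of its group. The mean went from 11.6 ± 3.81 to 5.36 ± 0.362 FPKM, or 53.9% lower, and the log2 change was -1.05 (SE 0.24, with limma's adjusted p = 0.0417).

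Gria3 (ENSMUSG00000001986, chrX:41400854-41678601) encodes GluA3 and was the most abundant of the 9. It measured 15.2, 14.9 and 13.0 FPKM in the young samples against 12.0, 8.0 and 10.3 FPKM in the old samples. The old samples were all below the young ones, with a mean of 10.1 ± 2.03 against 14.4 ± 1.17 FPKM, but the log2 change of -0.52 (SE 0.16) did not pass the threshold (limma adjusted p = 0.0823). In old sample 1, 2.00 of the 12.0 FPKM came from Gria3-203, a transcript model of 322 nucleotides that was listed at 0 in every other sample.

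Gria1 (ENSMUSG00000020524, chr11:57011387-57330244) encodes GluA1, the least abundant AMPA subunit here. Its level was 0.603, 0.128 and 0.11 FPKM in the young and 0.757, 0.677 and 0.338 FPKM in the old samples, from an estimated 6.81 to 55.0 fragments per sample. Young sample 1 was inside the range of the old samples and the other young samples were below it. The log2 change was 1.04 (SE 0.58, limma adjusted p = 0.291).

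The summed FPKM of the 4 AMPA genes went from 30.8 ± 6.50 in young to 17.9 ± 1.93 in old mice. Within this sum, Gria2 made up 14.4, 16.5 and 12.3% in the young and 8.93, 11.1 and 10.3% in the old samples, without overlap. The share of Gria1 was 1.81, 0.359 and 0.472% in young and 3.79, 4.18 and 1.93% in old samples, also without overlap. Shares of Gria3 (47.7 ± 7.20% against 56.3 ± 5.98%) and Gria4 (37.1 ± 5.04% against 30.3 ± 4.42%) overlapped between the ages. The 4 shares add up to the whole, so they are not independent of each other, and they were compared without a test.

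At the level of transcripts, limma called 0 of the 17 receptor transcripts in either direction, against 0.549% of all 38764 transcripts tested that were called higher and 0.199% that were called lower. At an unadjusted p below 0.05, 6 were lower (7.98% of all) and 1 was higher (9.05% of all). Of the 17 tested, 6 were lower in every old than in every young sample and 2 were higher, against 11.7% and 12.3% of all transcripts tested. Of the 34 in the table, 8 were below 0.001 FPKM in all samples.

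Both transcripts of Gria2 in the table, of 8 annotated, were lower in all old samples. Gria2-202, which holds the flip exon, measured 2.89, 3.47 and 1.94 FPKM in young and 0.985, 1.29 and 1.17 FPKM in old samples (log2 change -1.17, SE 0.31, limma adjusted p = 0.124). Gria2-201, which holds the flop exon and a far longer last exon (7265 against 920 nucleotides), measured 1.92, 2.39 and 0.939 FPKM in young and 0.799, 0.499 and 0.623 FPKM in old samples (log2 change -1.25, SE 0.45, limma adjusted p = 0.230). The flop share, of the FPKM of transcripts with either exon, was 39.9, 40.7 and 32.6% in young and 44.8, 27.9 and 34.8% in old samples. The groups overlapped, and the mean differed by -1.93 percentage points (exact two-sided permutation test, p = 0.8). As the last exons differ too, this share does not isolate the flip and flop exons.

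Gria3-201, the flip form and main transcript of Gria3, went from 10.1 ± 1.57 to 6.54 ± 1.00 FPKM without overlap (log2 change -0.62, limma adjusted p = 0.136). The flop forms Gria3-202 and Gria3-209 overlapped between the ages, at 2.15 ± 1.58 against 0.884 ± 1.06 FPKM and at 2.09 ± 0.929 against 2.03 ± 0.566 FPKM. The flop share of Gria3 was 30.8, 22.8 and 35.5% in young and 43.6, 20.8 and 26.2% in old samples, a difference of 0.526 percentage points (exact two-sided permutation test, p = 1). Its highest and lowest values were both in old samples. Both flop forms have a last exon of 246 nucleotides and the flip form has 1 of 2262, so this share does not isolate the flip and flop exons.

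Of the Gria4 transcripts that hold either exon, which made up 49.5 to 61.0% of the gene's FPKM, flop was the larger part in every sample. The flop share of flip plus flop was 62.4, 74.7 and 86.4% in young and 77.6, 69.4 and 89.0% in old samples, which overlapped (difference 4.17 percentage points, exact two-sided permutation test, p = 0.7). Gria4-201, the main flop form, went from 4.57 ± 1.73 to 2.38 ± 0.0428 FPKM without overlap (log2 change -0.85, limma adjusted p = 0.198), and Gria4-202, the flip form, went from 1.77 ± 1.12 to 0.683 ± 0.389 FPKM with overlap. Of the whole gene, flop transcripts were 33.9 to 46.8% of the FPKM. The rest of Gria4 was in Gria4-203, a model of 11 exons that ends before the flip and flop exons and was 5.83, 6.05 and 3.73 FPKM in young and 2.29, 2.23 and 2.37 FPKM in old samples, without overlap (log2 change -1.11, SE 0.23, limma adjusted p = 0.0784).

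The FPKM of Gria1 was assigned to different transcripts in different samples. Gria1-201, a flip form, was below 0.001 FPKM in each young sample and 0.646, 0.677 and 0.338 FPKM in the old samples (limma adjusted p = 0.0887). Gria1-204, a flip form that starts at another first exon, was 0.128 and 0.11 FPKM in young samples 2 and 3 and below 0.001 FPKM elsewhere. The flop form Gria1-202 was 0.603 FPKM in young sample 1 and 0.111 FPKM in old sample 1, so the flop share was 100% in young sample 1, 14.7% in old sample 1 and 0% in the others (exact two-sided permutation test, p = 1). Young sample 1 is also the sample with the highest summed central glia markers and the highest Gad2, Slc32a1 and Slc6a5, and their part in the Gria1 flop value was not tested.

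**Figure D2:**
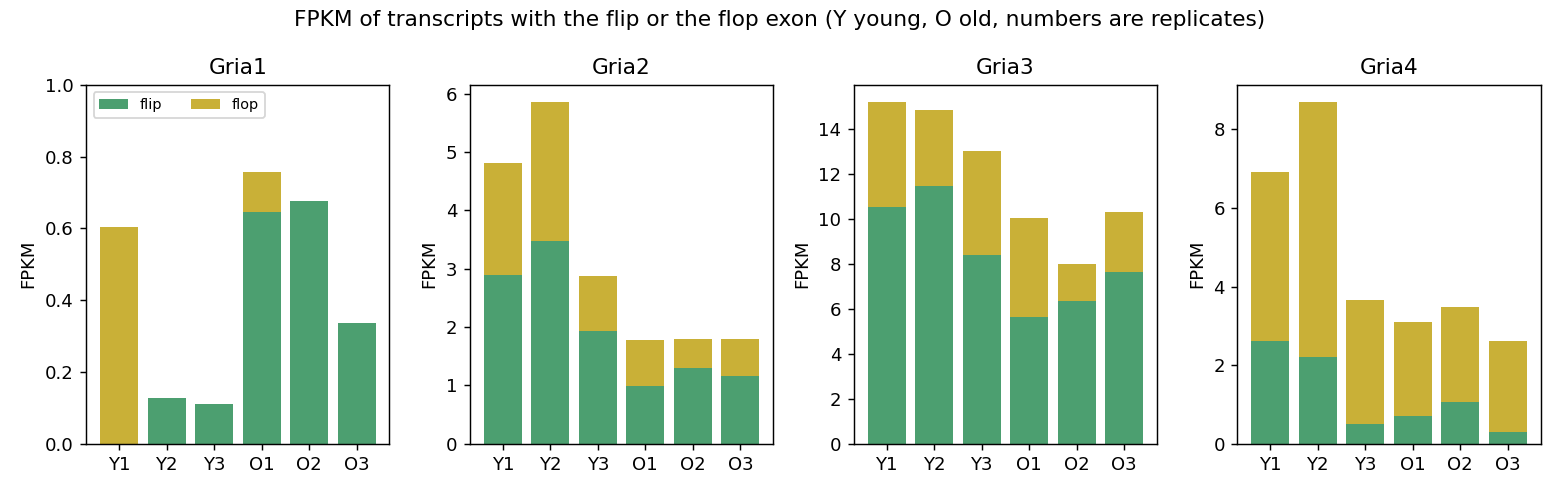
FPKM of the transcripts with the flip exon (green) and the flop exon (yellow) of the 4 AMPA receptor genes, stacked for each young (Y) and old (O) sample, with a vertical axis of its own per gene. Both forms are lower in old samples for Gria2, flop is the larger part of these Gria4 transcripts in all 6 samples (Gria4-203, which holds neither exon, is not drawn), and Gria1 flop is seen in Y1 and O1.

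Grin1 (ENSMUSG00000026959, chr2:25291181-25319187, − strand) encodes GluN1, which every NMDA receptor contains. Its level was 9.71, 11.4 and 6.30 FPKM in young samples 1 to 3 and 3.82, 4.82 and 4.32 FPKM in old samples 1 to 3. The groups did not overlap. The mean went from 9.13 ± 2.58 to 4.32 ± 0.502 FPKM, or 52.6% lower, and the log2 change was -1.03 (SE 0.22, with limma's adjusted p = 0.0351). An antisense gene, Grin1os, overlaps Grin1 in the annotation and is not in the table.

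The N1 cassette is an alternative exon of Grin1 in the extracellular amino-terminal domain of GluN1. It is shown because 1 of the N1-containing transcripts had the most negative log2 change among the receptor transcripts tested. It spans 63 nucleotides at chr2:25311343-25311405 (GRCm38, − strand, from GENCODE M21), with no part of it capitalised.
Grin1 N1: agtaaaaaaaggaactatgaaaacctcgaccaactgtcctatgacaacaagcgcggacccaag
Grin1-207, with N1 and the short last exon of 948 nucleotides, was 5.25, 4.75 and 3.00 FPKM in young and 1.17, 1.25 and 1.27 FPKM in old samples. Every old sample was below every young sample, and the mean was 71.7% lower (log2 change -1.70, SE 0.27, limma adjusted p = 0.0558). Grin1-205, without N1 but with the same last exon, was 3.69, 5.61 and 2.04 FPKM in young and 1.77, 2.79 and 2.1 FPKM in old samples, with overlap (log2 change -0.65, SE 0.39, limma adjusted p = 0.444). Grin1-203, with N1 and the long last exon of 1304 nucleotides, was 0.773, 0.996 and 0.992 FPKM in young and 0.867, 0.791 and 0.954 FPKM in old samples, which overlapped (log2 change -0.07, SE 0.35, limma adjusted p = 0.946). Transcripts with the C1 cassette of 111 nucleotides, which lies in the cytoplasmic tail, were below 0.001 FPKM except Grin1-204 in young sample 3, at 0.269 FPKM.

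Transcripts with N1 made up 62.0, 50.6 and 67.7% of Grin1 FPKM in young and 53.4, 42.2 and 51.4% in old samples, which overlapped. The short last exon made up 92.0, 91.2 and 80.0% in young and 77.2, 83.6 and 77.9% in old samples, also with overlap. These shares were computed after the transcript values had been seen and were not tested.

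**Figure D3:**
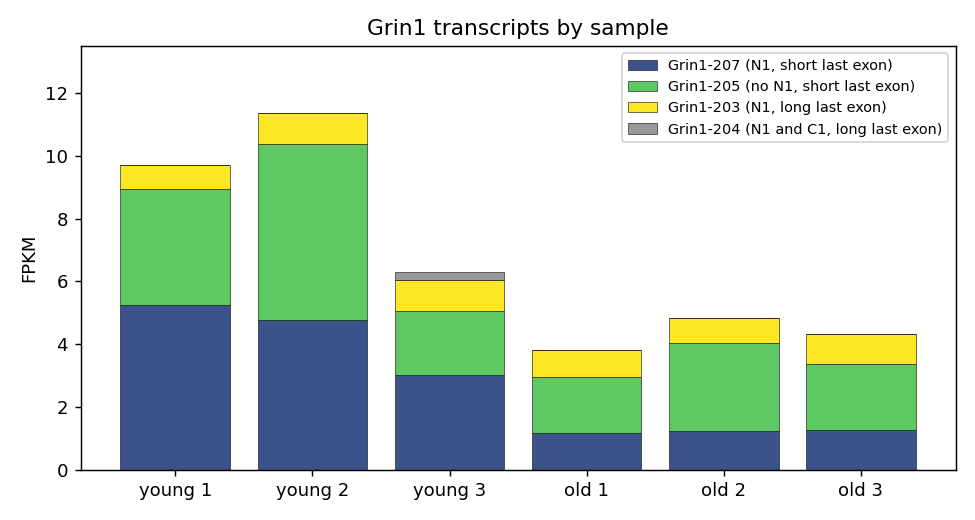
FPKM of the 4 Grin1 transcripts above 0.1 FPKM in any sample, stacked for each young and old sample. Grin1-207 (dark blue) is 3.00 to 5.25 FPKM in young and 1.17 to 1.27 FPKM in old samples, while Grin1-203 (yellow) is 0.773 to 0.996 FPKM in all 6.

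The partner subunits among the 9 genes were near the limit of detection. Grin2a (ENSMUSG00000059003, GluN2A) was 0.11, 0.00502 and 0.0223 FPKM in young and 0.0276, 0.0177 and 0.036 FPKM in old samples, from an estimated 0.988 to 7.79 fragments, with its highest value in young sample 1. Grin2b (ENSMUSG00000030209, GluN2B) was 0.0728, 0.0546 and 0.0555 FPKM in young and 0.115, 0.0177 and 0.0206 FPKM in old samples, from 3.92 to 22.3 fragments. Both ranges overlapped between the ages, and a difference was not detectable at this depth. The transcript Grin2b-201 was lower in every old sample, at 0.0505 ± 0.0245 against 0.00999 ± 0.00135 FPKM, from an estimated 2.80 to 22.3 fragments. Grin2b-202 had the higher mean in old samples, at 0.0105 FPKM in young and 0.0231 FPKM in old, with overlap.

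Grik5 (ENSMUSG00000003378, chr7:25009849-25072346) encodes GluK5, which forms channels together with GluK1 to GluK3 subunits. Its level was 6.97, 6.06 and 6.26 FPKM in young and 9.30, 7.04 and 7.22 FPKM in old samples, all from Grik5-201, the only 1 of its 7 annotated transcripts in the table. Every old sample was above every young sample, by a narrow margin in old sample 2. The mean went from 6.43 ± 0.475 to 7.85 ± 1.26 FPKM, and the log2 change of 0.28 (SE 0.14) did not pass the threshold (limma adjusted p = 0.255).

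Grik4 (ENSMUSG00000032017, chr9:42518135-42944493) encodes GluK4, the other high-affinity kainate subunit. It was 1.42, 1.59 and 0.666 FPKM in young and 0.806, 0.690 and 0.521 FPKM in old samples. Young sample 3 was below old samples 1 and 2, and the log2 change was -0.71 (SE 0.38, limma adjusted p = 0.264). Its main transcript, Grik4-201, was 0.914 ± 0.356 FPKM in young and 0.437 ± 0.146 FPKM in old samples, with overlap. Of the summed FPKM of both kainate genes, Grik5 made up 83.1, 79.2 and 90.4% in young and 92.0, 91.1 and 93.3% in old samples, without overlap.

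The receptor genes were then set beside the neuron markers. Dividing each sample by the geometric mean of the 18 neuron markers, a list chosen with earlier results of these data known, moved the median log2 change of all genes to 0.83, so changes on this scale are read against that median. On it, Gria2 changed by -0.40 (limma adjusted p = 0.224), Gria4 by -0.20 (adjusted p = 0.484), Grin1 by -0.18 (adjusted p = 0.531), Gria3 by 0.33 (adjusted p = 0.296) and Grik4 by 0.06 (adjusted p = 0.905). Gria1 (1.67, limma adjusted p = 0.0277) and Grik5 (1.12, adjusted p = 0.00959) were called higher, where 56.3% of all genes were called higher and 0.308% lower. The ratio of Gria2 FPKM to the neuron markers was 0.210, 0.209 and 0.173 in young and 0.149, 0.138 and 0.156 in old samples, without overlap. The ratio of Gria4 was 0.558, 0.527 and 0.445 in young and 0.451, 0.440 and 0.433 in old samples, which overlapped. The ratio of Grin1 was 0.425, 0.406 and 0.380 in young and 0.320, 0.372 and 0.375 in old samples, without overlap and by a margin smaller than the spread within each age. Whether neuron content accounts for part of the changes was not tested.

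**Figure D4:**
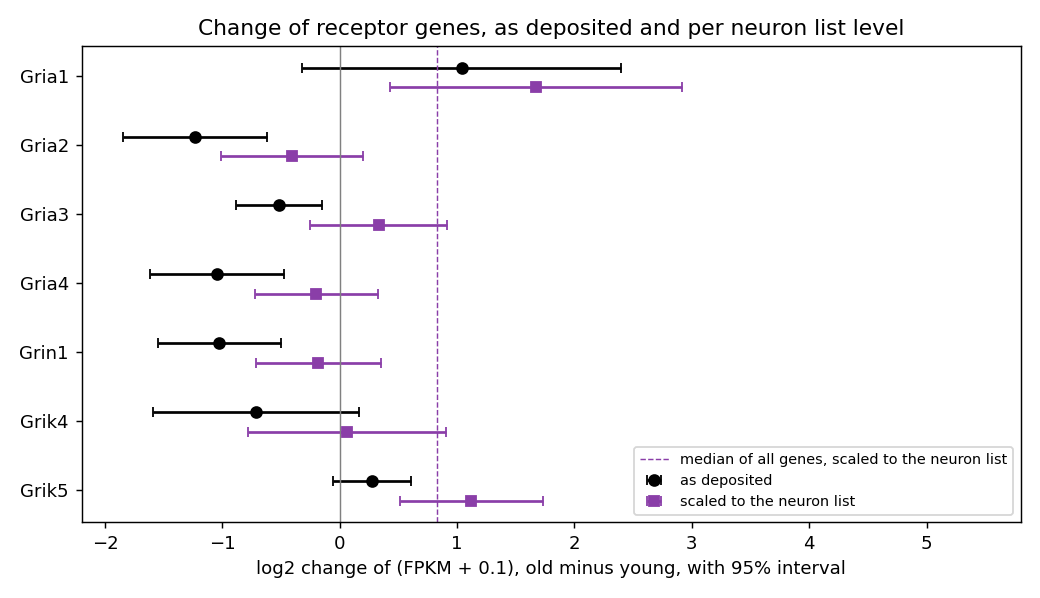
Log2 change of FPKM + 0.1, old minus young, for the 7 receptor genes tested, with 95% intervals from limma, as deposited (black circles) and after division by the geometric mean of the neuron markers (purple squares). As deposited, the intervals of Gria2, Gria3, Gria4 and Grin1 lie below 0, whereas on the neuron scale they span 0, and the dashed line marks the median of all genes on that scale, 0.83.

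The 9 ionotropic subunits outside the set were all tested, and limma called 0 in either direction, with a median log2 change of 0.33. At an unadjusted p below 0.05, 2 were higher and 0 lower. Of all genes tested, 5.65% were called higher and 3.81% lower, and 14.6% and 13.1% at an unadjusted p below 0.05. Counts of this and the later lists are read against these shares. GluN2 and GluN3 genes together summed to 2.49 ± 0.572 FPKM in young and 3.52 ± 0.833 FPKM in old mice, beside 9.13 and 4.32 FPKM of Grin1, their obligatory partner. Grin2c (GluN2C) was 1.13, 0.975 and 0.722 FPKM in young and 1.47, 1.27 and 1.72 FPKM in old samples, all above the young ones, with a limma adjusted p of 0.178.

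Many auxiliary proteins ride with AMPA or kainate receptors and shape their gating and surface delivery. Of 18 tested genes listed as auxiliary to these receptors, limma called 2 higher (5.65% of all genes) and 2 lower (3.81%). The median log2 change of the list was -0.36. Cacng5, which encodes the TARP gamma-5, was 1.61 ± 0.307 FPKM in young and 0.685 ± 0.0429 FPKM in old mice (log2 change -1.11, limma adjusted p = 0.0387). Olfm1, a secreted olfactomedin found in AMPA receptor complexes and the most abundant of the list over all 6 samples though not in old mice, had a log2 change of -0.51 (limma adjusted p = 0.0478). Nptxr, the neuronal pentraxin receptor, which clusters AMPA receptors, went from 3.82 ± 0.538 to 6.55 ± 0.188 FPKM (log2 change 0.77, limma adjusted p = 0.0253). Sorcs2, a sorting receptor of the Vps10 family, went from 5.33 ± 1.02 to 11.8 ± 2.92 FPKM (log2 change 1.12, limma adjusted p = 0.0253). Without young sample 1 the list held 1 call, and without young sample 2 or any 1 old sample it held 0.

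Among 22 postsynaptic scaffold and trafficking genes, 3 were called lower (3.81% of all genes) and 0 higher (5.65%), with a median log2 change of -0.41. The called genes were Dlg2 (PSD-93, log2 change -0.99), Dlgap1 (a binding partner of Dlg proteins, -0.86) and Homer2 (-0.84). Their limma adjusted p-values were 0.0327, 0.0143 and 0.0134. At an unadjusted p below 0.05, 2 of the list were higher (14.6% of all genes) and 11 lower (13.1%). The list held 1 call without young sample 2, 0 without old sample 2 and 5 without young sample 3. The most abundant of the list over all 6 samples, Nsf, an ATPase of vesicle fusion that also binds GluA2 (in old mice Epb41l1 was higher, at 48.3 FPKM), went from 74.1 ± 18.3 to 46.9 ± 1.43 FPKM (limma adjusted p = 0.0549). Of 3 tested metabotropic glutamate receptors, 0 were called, and 1 was lower at an unadjusted p below 0.05 (13.1% of all genes). The most abundant, Grm7, was 6.31 ± 1.66 FPKM in young and 3.72 ± 0.929 FPKM in old mice (limma adjusted p = 0.119).

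Of 11 tested transporters and enzymes of the glutamate cycle, limma called 3 lower (3.81% of all genes) and 0 higher (5.65%). The median log2 change of the list was -0.34. At an unadjusted p below 0.05, 0 were higher (14.6% of all genes) and 7 lower (13.1%). Slc17a6 and Slc17a7, vesicular transporters that load glutamate at the central endings of auditory neurons, had log2 changes of -1.23 and -1.06 (limma adjusted p = 0.0223 and 0.0279). Slc38a1, a glutamine transporter, changed by -0.45 (limma adjusted p = 0.0365), and Glul, glutamine synthetase and the most abundant of the list, by -0.04 (limma adjusted p = 0.822). The 3 calls were lost without any 1 sample other than young sample 3. Of the 3 editing enzyme genes, Adarb1, which encodes ADAR2, the enzyme that edits the Gria2 transcript, was 21.1, 28.0 and 17.3 FPKM in young and 11, 12.1 and 11.3 FPKM in old samples, without overlap (log2 change -0.91, limma adjusted p = 0.0244). Its ratio to the neuron markers was 0.988 ± 0.0603 in young and 0.946 ± 0.0338 in old mice. The call of Adarb1 was lost without young sample 1 or any 1 old sample. Adar encodes ADAR1 and had the highest mean of the list over all samples. It was 16.6, 15.4 and 13.8 FPKM in young and 14.8, 23.6 and 20.3 FPKM in old samples, which overlapped (log2 change 0.33, limma adjusted p = 0.253). After neuron scaling it passed as higher in old mice (log2 change 1.18, limma adjusted p = 0.00664), as did 56.3% of all genes.

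Markers of other cell types moved as well. In the neuron list the 6 largest of the 11 falls were those of Pou4f1 (log2 change -1.52), Nefm (-1.30), Thy1 (-1.20), Snap25 (-1.19), Nefl (-1.07) and Uchl1 (-1.06). Of the 7 not called, Prph went the other way and was higher in every old than in every young sample (0.70, limma adjusted p = 0.067). Ntrk2 overlapped (-0.22), and the rest were lower without overlap, Ntrk3 by -0.22. Of all genes, 3.81% were called lower and 5.65% higher. Schwann cell markers gave 4 called lower of 8 (among them Ncmap -0.67, Prx -0.63 and Pmp22 -0.53). The 4 not called overlapped between the ages, and among them Egr2 was higher in the mean of the old samples (0.60) and Sox10 hardly changed (-0.03). Hair cell markers gave 5 called lower of 10 (Gfi1 -2.05, Chrna9 -1.50, Ocm -1.18, Slc26a5 -1.10 and Pvalb -0.89). Of those not called, Pou4f3 (-1.33), Chrna10 (-1.05) and Tmc1 (-0.66) were lower without overlap, and Otof (-0.33) and Myo7a (0.002) overlapped. Such markers, Pvalb among them, cannot be assigned to 1 cell type in this tissue. Macrophage markers gave 7 called higher of 8 (the largest Lyz2 2.64, Aif1 2.1, Ctss 2.09, C1qa 1.93, C1qb 1.77 and Cd68 1.75), with a median log2 change of 1.85. Neither central list had a call by limma (0 higher and 1 lower of 6 tested glia markers at an unadjusted p below 0.05, and 0 of 1 tested inhibitory marker), and the most abundant genes of these lists, Aqp4 and Gad1, had log2 changes of -0.46 and -0.66 (limma adjusted p = 0.087 and 0.284). Their part in the receptor values was not tested. Without any 1 sample other than young sample 3, the neuron list held 0 or 1 call and the Schwann cell list 0. The hair cell list held 3 calls without young sample 2, 2 without old sample 1 or 3 and 0 without old sample 2, and the macrophage list held 2 without old sample 2.

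**Figure D5:**
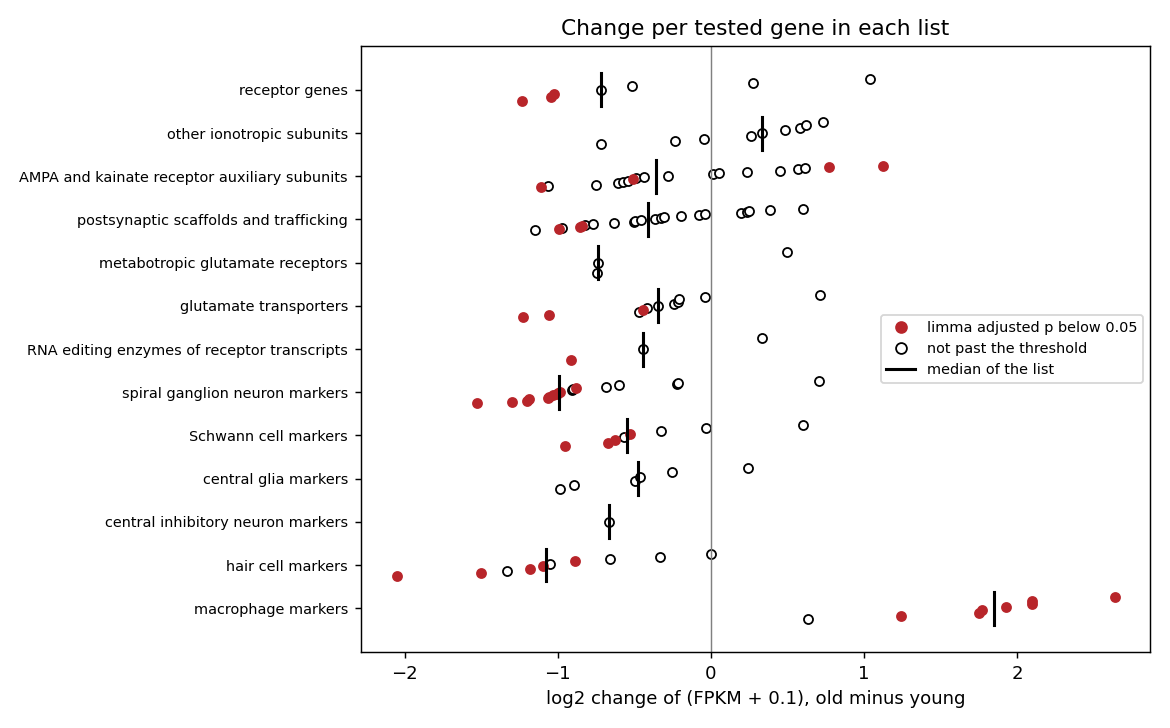
Log2 change of FPKM + 0.1, old minus young, of each tested gene (points, red where the limma adjusted p is below 0.05) in the receptor genes and 12 further lists, with the median of each list as a black line. The receptor genes have 3 red points below -1, the neuron markers 11 red points and a median of -0.99, and the macrophage markers 7 red points, all above 1.

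Genes outside the set with the most similar pattern were named by Pearson's r over the 6 samples, among 14980 genes with a mean of at least 1 FPKM, as a description. Closest to the summed AMPA genes were Zc2hc1a (r = 0.998), Rtn2 (0.997) and Tcp11l1 (0.997). Closest to the NMDA genes, whose sum is nearly all Grin1, were Rundc3a, Cplx1 and Fn3k (0.999 each), and Cplx1, which encodes the vesicle release protein complexin 1, was 87.7, 101 and 57.1 FPKM in young and 34.0, 40.8 and 39.0 FPKM in old samples. Closest to the kainate genes were Prmt6 (0.994), Cdh19 (0.992) and the authors' transcript LNC_000141 (0.987).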

How the data were processed

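The authors made directional libraries, aligned reads to GRCm38 and deposited FPKM per transcript and sample. The submitters' processing notes name CASAVA 1.8, TopHat2 2.0.9, Cufflinks 2.1.1 and Cuffdiff 2.1.1, and the annotation release is not given in the sources used here. Transcripts were matched here to GENCODE M21, and 404 Ensembl transcripts without a match were left out of the gene sums. Fragment numbers were derived from how low FPKM values step in genes with a single transcript (94.3 to 95.2% of values within 0.1 of a whole step). They are estimates, and for genes with several transcripts they also rest on how FPKM was divided among the transcripts.

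Genes were sums of transcripts. limma 3.58.1 in R 4.3.3 (lmFit, eBayes with trend) was run on log2(FPKM + 0.1) for features with a mean of at least 0.1 FPKM, with age as the only term, in place of the Cuffdiff test of the study, which needs reads. A fold change on this scale understates the change of low genes. The Benjamini-Hochberg adjustment ran over every gene, or every transcript, tested (threshold 0.05), and the code was tested on simulated data. Exact permutation tests were two-sided and cannot go below p = 0.1 with 3 samples in each age. Values below 0.001 FPKM were taken as 0 when ranges were compared. Flip and flop exons were found by exon coordinates in the annotation and by their translation. N1 and C1 were the inner exons of Grin1 that some transcripts lack, told apart by length (63 and 111 nucleotides).

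The receptor genes and all lists were chosen with earlier results of these data known. Named are all 9 receptor genes, their transcripts with a mean of at least 0.5 FPKM or without overlap, the called genes of each list (at most 6) with its most abundant gene (by the mean over all samples, a basis chosen after the values were seen), and the 3 genes most similar to each receptor class. Some genes that this rule names are not reported here. Further genes (Grin2c, Mobp and the other central glia markers besides Aqp4, Egr2, Sox10, Prph, Ntrk2 and Ntrk3, and transcripts Gria1-202, Gria1-204, Gria3-203, Grin1-204 and Grin2b-202) were named after their values were seen. The alternatives tried were the pseudocount, the filter, the scaling, the variance trend, sample weights, a replicate block, the most abundant transcript in place of the sum, and leaving out each sample.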

Additional observations from a re-analysis of the deposited data

How the results depend on the processing

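The spread rests on 3 pools per age, and the estimated fragments of Gria1, Grin2a and Grin2b limit what could be detected for them. The changes of the called receptor genes kept their direction under all settings run, with pseudocounts of 0.01 and 1, a mean of at least 1 FPKM, median of ratios scaling, quantile normalization and sample weights also keeping all 3 calls (limma). The count of receptor genes called lower was 0 with no filter, 0 after scaling to the neuron markers, 0 with no variance trend and 1 with the replicate block, and it ranged from 0 to 3 when 1 sample was left out. Over all genes, calls lower were 741 in the main fit and 398, 60, 126 and 290 under these 4 settings. With 1 sample left out they were 16 to 822. With the most abundant transcript, 2 receptor genes and 546 of all genes were called lower. The count of receptor genes called higher was 2 after neuron scaling, where 56.3% of all genes were called higher, and 1 with the most abundant transcript, where 835 of all genes were. Receptor transcripts called higher numbered 2 after neuron scaling, 1 with no variance trend and 1 at an unadjusted p below 0.05, and those called lower 1 with a mean of at least 1 FPKM, 1 with sample weights, 6 at an unadjusted p below 0.05 and 0 to 2 with 1 sample left out. The cause of these differences was not tested.

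With no filter, no variance trend and the block, the log2 changes of Gria2 (-1.23), Gria4 (-1.05) and Grin1 (-1.03) had the same value, and limma's adjusted p was 0.0554, 0.0652 and 0.0562 with no filter and 0.0756, 0.0998 and 0.086 with no trend. The replicate numbers of the 2 ages did not pair the samples (correlation of deviations 0.023, -0.0406 and 0.0109 for the same numbers), and with the replicate block the adjusted p was 0.0572 for Gria2 and 0.0523 for Grin1, whose log2 change was -1.23 and -1.03. After neuron scaling the log2 changes were 1.67 for Gria1, -0.40 for Gria2, 0.33 for Gria3, -0.20 for Gria4, -0.18 for Grin1, 0.058 for Grik4 and 1.12 for Grik5, which turned the sign of Gria3 and Grik4. With sample weights Gria3 passed at -0.64. The most abundant transcript gave 2.66 for Gria1, which then passed (limma adjusted p = 0.032), and -0.65 for Grin1, whose call was lost (adjusted p = 0.311). For Gria1 this transcript was Gria1-201, below 0.001 FPKM in each young sample, where the FPKM of the gene was assigned to Gria1-202 or Gria1-204. The value is thus not a measure of the whole gene.

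Leaving out 1 sample gave ranges of 0.73 to 1.6 for Gria1, -1.52 to -1.02 for Gria2, -0.65 to -0.36 for Gria3, -1.34 to -0.85 for Gria4, -1.27 to -0.85 for Grin1, -1.07 to -0.50 for Grik4 and 0.15 to 0.35 for Grik5. The difference in flop share ranged from -45.1 to 4.90 percentage points for Gria1, -6.41 to 2.04 for Gria2, -6.19 to 5.23 for Gria3 and -1.88 to 10.1 for Gria4. Its sign turned without young sample 1 for Gria1 and Gria4, old sample 2 for Gria2, young sample 2 or old sample 1 for Gria3 and old sample 3 for Gria4.

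For the lists, neuron scaling gave 4 calls among other ionotropic subunits, 6 among scaffolds, 1 among metabotropic receptors, 3 among neuron and 2 among Schwann cell markers, all higher in old mice, whereas the calls without it among scaffolds, neuron and Schwann cell markers were all lower. Among hair cell markers it gave 2, 1 higher and 1 lower. It gave 4 transporters and 1 editing enzyme, all higher, and among auxiliary subunits 3 higher and 0 lower. After neuron scaling 56.3% of all genes tested were called higher and 0.308% lower, so these counts are read against those shares. The neuron markers are also part of the mean that scales them. No filter gave 2 among auxiliary subunits, 6 among neuron and 2 among Schwann cell markers. No variance trend gave 1 among auxiliary subunits, 0 among transporters, 0 among editing enzymes, 1 among neuron, 0 among Schwann cell, 3 among hair cell and 4 among macrophage markers. The block gave 1 among auxiliary subunits and 1 among Schwann cell markers. With 1 sample left out the calls ranged from 0 to 3 for auxiliary subunits, 0 to 5 for scaffolds, 0 to 3 for transporters, 0 to 1 for editing enzymes, 0 to 12 for neuron, 0 to 6 for Schwann cell, 0 to 5 for hair cell and 2 to 7 for macrophage markers. Over all genes, higher and lower calls were 754 and 398 with no filter, 284 and 126 with no trend and 440 and 290 with the block. The main fit gave 1099 and 741, and 1 sample left out gave 46 to 949 and 16 to 822.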
